A study of Homo sapiens with 6 samples.

Results

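The NF-κB genes described here were 35 genes, namely the 5 subunits of the transcription factor, its inhibitors and upstream kinases, the ubiquitin-modifying proteins that restrain it, and a set of its well known target genes. A member was measured on the array where the platform annotation listed its symbol alone on a probe set, the array's unit of measurement, made up of short oligonucleotides to the same transcript. This held for 30 of the 35 members, of 19775 genes with such a probe set. On the probe set with the highest mean signal, 28 of the 30 passed a filter (signal above 18.6, the median of all values, on at least 3 of the 6 arrays) and were tested, of 12320 genes tested, while TRAF1 and MAP3K8 lay below the filter. BCL3 and ZC3H12A shared their probe sets with another symbol, and BIRC3, TRAF2 and CSF2 are not analysed here.

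RNA was profiled in Cal27, an established squamous carcinoma line from human tongue. In 3 arrays the cells carried a hairpin against IL-1β delivered by lentivirus (LV-shIL-1β), and in 3 arrays a scrambled hairpin (LV-shNC), so both groups had been transduced with lentivirus. Selection over 2 weeks with puromycin at 2 µg/mL was recorded for the samples of both groups. The paper states it for the stable knockdown cells and does not describe it separately for LV-shNC cells. The labels mention no single clone. No source tells if the replicates were grown apart, and the p-values then reflect array-to-array spread, which could be technical only. In bulk RNA of this kind, fewer cells of a type and less RNA per cell cannot be told apart.

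The hairpins are printed because they are what differs between the groups by design. Capitals mark the paired arms of 20 bases, and the lower-case bases between them are the loop of 7 bases.
LV-shIL-1β hairpin: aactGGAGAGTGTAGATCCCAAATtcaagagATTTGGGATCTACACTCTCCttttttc
LV-shNC hairpin: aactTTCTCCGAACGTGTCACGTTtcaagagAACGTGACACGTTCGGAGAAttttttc

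NF-κB dimers are held in the cytoplasm by IκB proteins. Interleukin-1, tumour necrosis factor and Toll-like receptor ligands act through ubiquitin-building TRAF proteins and the kinase TAK1 on the IκB kinase complex, which marks IκB for destruction, and the freed dimers then switch on cytokines, adhesion molecules and their own inhibitors. Squamous carcinoma cells both secrete and respond to interleukin-1, and several of the genes below are feedback products of the pathway, so their RNA levels are often read as a record of its activity.

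The target of the hairpin was lower on every LV-shIL-1β array. IL1B had signals of 1569, 1569 and 1596 in LV-shIL-1β cells, against 2677, 2611 and 2494 in LV-shNC cells (log2 fold change -0.72 ± 0.04, SE, limma adjusted p = 2.46e-05). The fold was 0.61, with a 95% interval of 0.58 to 0.64, and IL1B remained well above the filter in both groups. Median signals of the 6 arrays ran between 18.4 and 18.9, and precision is limited by the number of arrays. All 7 of the squamous epithelial markers with a probe set lay above the filter, of which KRT5 and KRT14 were lower in LV-shIL-1β cells (log2 fold change -0.32 and -0.35, limma adjusted p = 0.00152 and 0.000262). Their summed signal was 26045 to 27235 in LV-shIL-1β cells and 28269 to 30096 in LV-shNC cells. Of 8 leukocyte markers only CD14 and LAPTM5 lay above it, with sums over all 8 of 208 to 219 in LV-shIL-1β cells and 201 to 212 in LV-shNC cells, while PTPRC, which defines leukocytes, averaged 2.64 in LV-shIL-1β cells and 2.68 in LV-shNC cells. CD14, a co-receptor for lipopolysaccharide, was higher, averaging 70.4 in LV-shIL-1β cells and 49.5 in LV-shNC cells (log2 fold change 0.51, limma adjusted p = 0.00454), and LAPTM5 was not called, at 84.0 in LV-shIL-1β cells and 91.4 in LV-shNC cells. Endothelial markers (2 of 6 above the filter) summed to 88.4 to 92.5 in LV-shIL-1β cells and 94.3 to 98.6 in LV-shNC cells. Fibroblast markers (5 of 8 above the filter) summed to 146 to 160 in LV-shIL-1β cells and 183 to 202 in LV-shNC cells. Of these, COL1A2 and LUM were called lower in LV-shIL-1β cells (-0.53 and -1.14, limma adjusted p = 0.0130 and 0.00541). COL1A2 averaged 16.1 in LV-shIL-1β cells and 23.2 in LV-shNC cells, and LUM averaged 12.4 and 27.5. Both LV-shIL-1β means lay below the filter signal, so these calls rest on dim signals and the size of the drop is uncertain. The part of these shifts in the results on the NF-κB genes was not tested.

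The NF-κB genes as a group showed small changes. CYLD was the single member of 28 called higher at a limma adjusted p under 0.05, a share of 3.57%, beside 4.03% of all genes tested, and 0 members were called lower, beside 4.5% of all genes (8.52% in either direction). A share of this size is near the background and is not a result about the members. At an unadjusted limma p under 0.05, 6 members were higher and 2 lower, or 21.4% and 7.14%, beside 13% and 12% of all genes. The arrays of the groups did not overlap for 9 members that were higher and 2 that were lower, or 32.1% and 7.14%, beside 15.9% and 15.7% of all genes. Log2 fold changes ran between -0.17 for C3 and 0.29 for CYLD, with a median of 0.06 beside 0.00 over all genes, and 18 members had a positive sign (64.3%, beside 51.1%).

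The size of change that these arrays allow was bounded. On the brightest probe set of all 28 members the 95% interval of the fold change lay inside 1.5-fold in either direction, as it did for 96.4% of all genes. These intervals rest on the array-to-array spread, which could be technical only. The widest of these bounds were 1.37-fold for CHUK and CYLD on the higher side and, on the lower side, 0.805-fold for C3 and LTB and 0.807-fold for SOD2. Other kept probe sets reached further, to 1.45-fold on 1 of ICAM1 and 1 of CYLD, and to 0.758-fold on 1 of LTB.

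**Figure D1:**
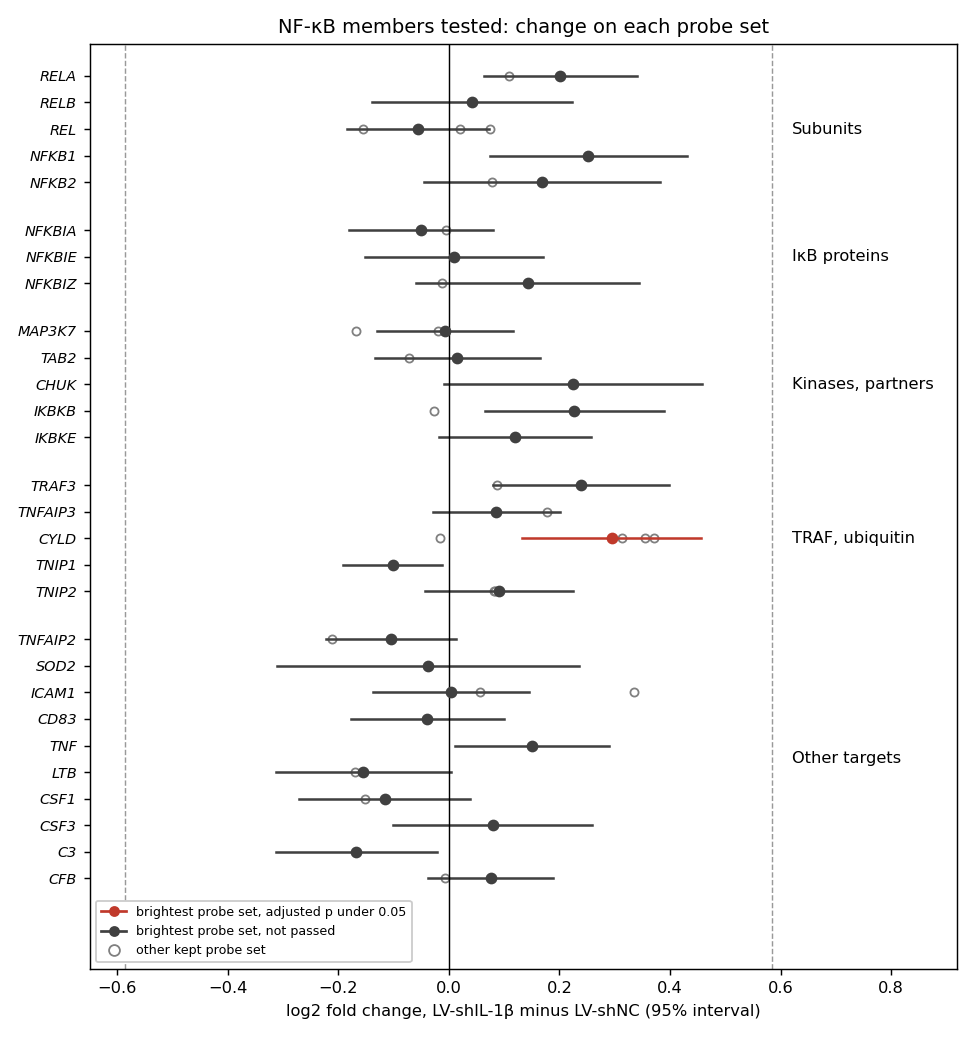
Log2 fold change of the 28 tested members, LV-shIL-1β minus LV-shNC, with each gene on its own line by role. Filled points with bars are the brightest probe set and its 95% interval, open points are the gene's other kept probe sets, and dashed lines stand at a fold of 1.5 either way. CYLD, in red, is the member called, and no bar reaches a dashed line.

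**Figure D2:**
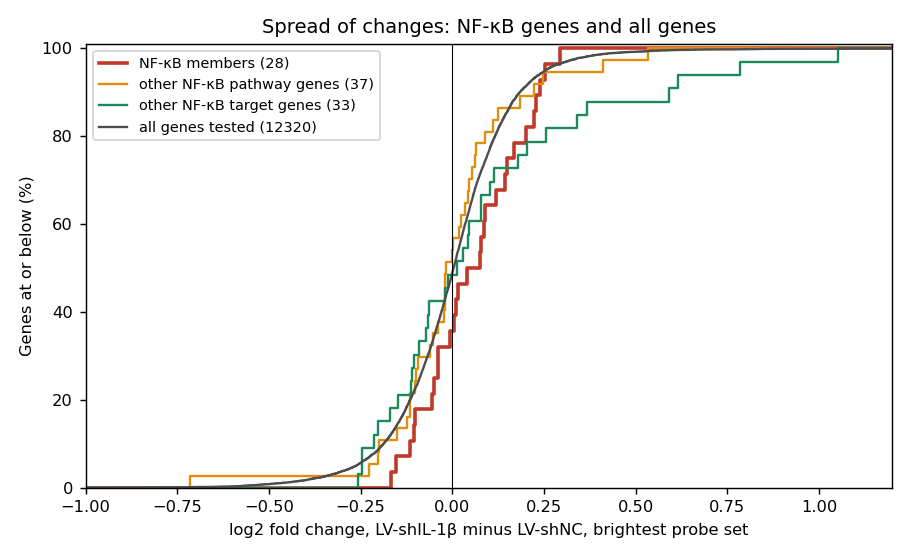
Cumulative share of genes (%) at or below each log2 fold change, LV-shIL-1β minus LV-shNC, for the 28 members, 37 other pathway genes, 33 other target genes and all 12320 genes tested. The members' curve spans -0.17 to 0.29, and that of the other targets has a tail reaching 1.05.

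Changes are given as log2 fold change ± SE, LV-shIL-1β minus LV-shNC. Among the 5 subunits, the larger differences were those of NFKB1 and RELA, which did not pass the adjusted threshold. NFKB1 encodes p105, the precursor of p50. Its signal was 247, 278 and 295 in LV-shIL-1β cells, against 244, 210.5 and 234 in LV-shNC cells (log2 fold change 0.25 ± 0.08, SE, limma adjusted p = 0.0926). All 3 LV-shIL-1β arrays lay above all 3 LV-shNC arrays, with LV-shIL-1β array 1 only just above. RELA encodes p65, the main activating partner of p50. It gave 323, 357 and 316 in LV-shIL-1β cells, against 298, 276 and 291 in LV-shNC cells (0.20 ± 0.06, SE, limma adjusted p = 0.0843). Here too the groups did not overlap, and the second probe set of RELA, whose groups overlapped, had a log2 fold change of 0.11.

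The other subunits overlapped between the groups. NFKB2, which encodes the p52 precursor of the noncanonical branch, had 55.7, 69.7 and 65.0 in LV-shIL-1β cells and 57.5, 59.5 and 52.0 in LV-shNC cells (log2 fold change 0.17 ± 0.10, limma adjusted p = 0.332). Array 1 of LV-shIL-1β lay within the LV-shNC range and the other 2 above it. RELB, the usual partner of p52, had 62.6, 66.2 and 68.7 in LV-shIL-1β cells and 69.0, 64.9 and 58.4 in LV-shNC cells (0.04 ± 0.08). REL, the c-Rel subunit best known from lymphocytes, had 192, 191 and 178 in LV-shIL-1β cells and 199, 194 and 190 in LV-shNC cells (-0.06 ± 0.06). Over the 5 subunits the median log2 fold change was 0.17, and 4 were positive. The 4 kept probe sets of REL differed in sign, between -0.16 and 0.07.

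Of the IκB family, NFKBIA encodes IκBα, the classical inhibitor that NF-κB itself induces. Its signal was 1316, 1428 and 1467 in LV-shIL-1β cells and 1573, 1410 and 1381 in LV-shNC cells (log2 fold change -0.05 ± 0.06, SE). The groups overlapped, and its 95% interval, -0.18 to 0.08, covers a fold of 0.88 to 1.06. NFKBIZ, an atypical nuclear IκB that co-activates secondary inflammatory genes, had 696, 563 and 533 in LV-shIL-1β cells and 506, 556 and 552 in LV-shNC cells (0.14 ± 0.09, limma adjusted p = 0.389). Only array 1 of LV-shIL-1β was clearly high, and on the second probe set of NFKBIZ the log2 fold change was -0.01. NFKBIE, the IκBε inhibitor, stood at 0.01 ± 0.07.

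Of the 5 kinase and adaptor genes tested, 4 had a positive value and 0 were called. IKBKB encodes the catalytic IKKβ subunit of the canonical kinase complex. It had 128, 134 and 120 in LV-shIL-1β cells, against 109, 102 and 116 in LV-shNC cells (log2 fold change 0.23 ± 0.07, SE, limma adjusted p = 0.0955), so that the groups did not overlap. Its second kept probe set overlapped, at -0.03. CHUK encodes IKKα, which the noncanonical branch needs. It had 280, 225 and 212 in LV-shIL-1β cells, against 183, 212 and 216 in LV-shNC cells (0.22 ± 0.10, limma adjusted p = 0.241). This difference came with 1 high array, LV-shIL-1β array 1, and 1 low array, LV-shNC array 1, while the other 4 lay between 212 and 225. IKBKE, an inducible IKK-related kinase, had 82.7, 81.3 and 84.5 in LV-shIL-1β cells, against 74.7, 77.6 and 76.5 in LV-shNC cells (0.12 ± 0.06, limma adjusted p = 0.287), with no overlap. On the second kept probe set of IKBKE the groups overlapped, also at 0.12. MAP3K7, which encodes TAK1, and TAB2, its ubiquitin-binding adaptor, stood at -0.01 ± 0.06 and 0.02 ± 0.07. On its dimmest kept probe set MAP3K7 was lower with no overlap (-0.17 ± 0.07, limma adjusted p = 0.182), while its other kept probe sets overlapped.

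CYLD is a deubiquitinase that strips the ubiquitin chains on which TRAF proteins and the IκB kinase complex assemble, and it restrains NF-κB signalling. It was higher in LV-shIL-1β cells on 4 of its 5 kept probe sets. On the brightest, the signal was 143, 168 and 164 in LV-shIL-1β cells, against 131, 126 and 130 in LV-shNC cells (log2 fold change 0.29 ± 0.07, SE, limma adjusted p = 0.0398). This is a fold of 1.23, with a 95% interval of 1.10 to 1.37, and every LV-shIL-1β array lay above every LV-shNC array. The next brightest probe set had 93.1, 104 and 101 in LV-shIL-1β cells, against 78.5, 70.6 and 83.7 in LV-shNC cells (0.36, limma adjusted p = 0.0290). The third had 70.7, 71.0 and 74.4 in LV-shIL-1β cells, against 63.6, 52.7 and 58.0 in LV-shNC cells (0.31, limma adjusted p = 0.0478). The fourth had 50.2, 50.2 and 48.7 in LV-shIL-1β cells, against 37.9, 36.9 and 40.5 in LV-shNC cells (0.37, limma adjusted p = 0.0164). The groups did not overlap on any of these 4. On the dimmest kept probe set they did, at 31.0, 29.3 and 28.8 in LV-shIL-1β cells and 30.2, 32.0 and 28.0 in LV-shNC cells (-0.02, limma adjusted p = 0.939). These were 4 of the 55 kept probe sets of all members, or 7.27%, beside 3.68% of all kept probe sets, and 0 were called lower, beside 3.37%. At an unadjusted limma p under 0.05, 11 of the 55 were higher and 4 lower, beside 13% and 9.62%, and 14 and 4 did not overlap between the groups, beside 15.3% and 12.6%. The probe sets share the same arrays and are not separate measurements of the cells.

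On the brightest probe set the adjusted p rose above 0.05 when any single array other than LV-shIL-1β array 1 was dropped. In limma fits without LV-shIL-1β array 2 or 3 it reached 0.164 and 0.132, and without LV-shNC array 1, 2 or 3 it reached 0.0737, 0.122 and 0.0981. Dropping LV-shIL-1β array 1 gave 0.0120. The log2 fold change itself stayed between 0.25 and 0.37 in these 6 fits.

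**Figure D3:**
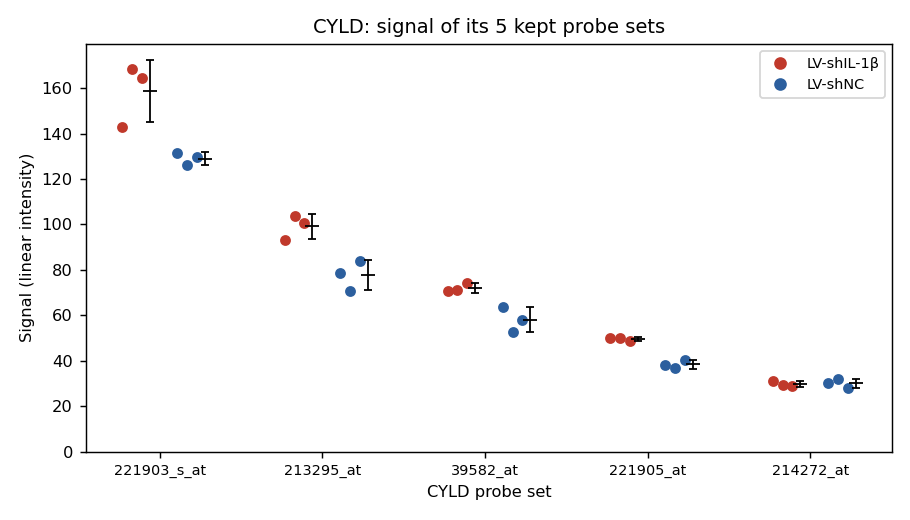
Signal (linear intensity, from 0) of the 5 kept CYLD probe sets on each array, LV-shIL-1β in red on the left and LV-shNC in blue on the right of each pair, with bars for mean ± SD (n = 3). The groups separate on 4 probe sets and overlap on the dimmest.

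TRAF3, which holds the noncanonical kinase NIK in check, followed CYLD and NFKB1 in log2 fold change on the brightest probe set. Its signal was 289, 333 and 340 in LV-shIL-1β cells, against 284, 260 and 269 in LV-shNC cells (0.24 ± 0.07, SE, limma adjusted p = 0.0762). The groups did not overlap, with LV-shIL-1β array 1 close to LV-shNC array 1. On its second kept probe set they overlapped, at 0.09 (limma adjusted p = 0.560). TNFAIP3 encodes A20, the ubiquitin-editing enzyme that NF-κB induces and that shuts the pathway off. It had 1634, 1657 and 1637 in LV-shIL-1β cells and 1654, 1429 and 1568 in LV-shNC cells (0.09 ± 0.05). The groups overlapped, but on its second probe set they did not, with 447, 468 and 432 in LV-shIL-1β cells, against 414, 380 and 398 in LV-shNC cells (0.18 ± 0.05, limma adjusted p = 0.0820). TNIP1, a partner of A20, had 650, 645 and 642 in LV-shIL-1β cells, against 694, 699 and 686 in LV-shNC cells (-0.10 ± 0.04, limma adjusted p = 0.167), also with no overlap. TNIP2, a related A20-binding protein, stood at 0.09 ± 0.06.

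The secreted and surface products did not share a direction, with a median log2 fold change of -0.02 over the 8 tested and 4 of each sign. TNF, the cytokine that NF-κB both induces and answers to, had 115, 113 and 112 in LV-shIL-1β cells, against 108, 98.1 and 101 in LV-shNC cells (0.15 ± 0.06, limma adjusted p = 0.188). LTB, lymphotoxin β, had 46.1, 45.0 and 46.5 in LV-shIL-1β cells, against 52.4, 48.5 and 52.3 in LV-shNC cells (-0.15 ± 0.07, limma adjusted p = 0.232). Neither overlapped between the groups on its brightest probe set, and they ran in opposite directions. On the second kept probe set of LTB the groups overlapped, at -0.17. C3, the central complement protein, had 809, 775 and 865 in LV-shIL-1β cells and 1006, 890 and 858 in LV-shNC cells (-0.17 ± 0.07, limma adjusted p = 0.162), with a slight overlap between the highest LV-shIL-1β array and the lowest LV-shNC array. CFB, the complement factor B of the alternative pathway, stood at 0.08 ± 0.05 with no overlap. Its second kept probe set overlapped, at -0.01.

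ICAM1, a leukocyte adhesion molecule and a standard readout of NF-κB, gave different values on its probe sets. On the brightest the log2 fold change was 0.00 ± 0.06. On the second the signal was 85.7, 97.9 and 82.0 in LV-shIL-1β cells, against 77.4, 67.7 and 65.6 in LV-shNC cells (0.33 ± 0.09, limma adjusted p = 0.0567), with no overlap, and on the last it was 0.06. SOD2, the mitochondrial superoxide dismutase, was read on 1 probe set, since its other 4 list a second symbol. It had 830, 686 and 604 in LV-shIL-1β cells and 608, 797 and 767 in LV-shNC cells (-0.04 ± 0.12), the widest standard error among the members, with array 1 the highest in LV-shIL-1β and the lowest in LV-shNC. On the brightest probe set TNFAIP2, CSF1, CSF3 and CD83 stood between -0.12 and 0.08, with limma adjusted p-values of 0.276 or above. TNFAIP2 was lower on its second probe set, with no overlap between the groups (-0.21 ± 0.08, limma adjusted p = 0.132).

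**Figure D4:**
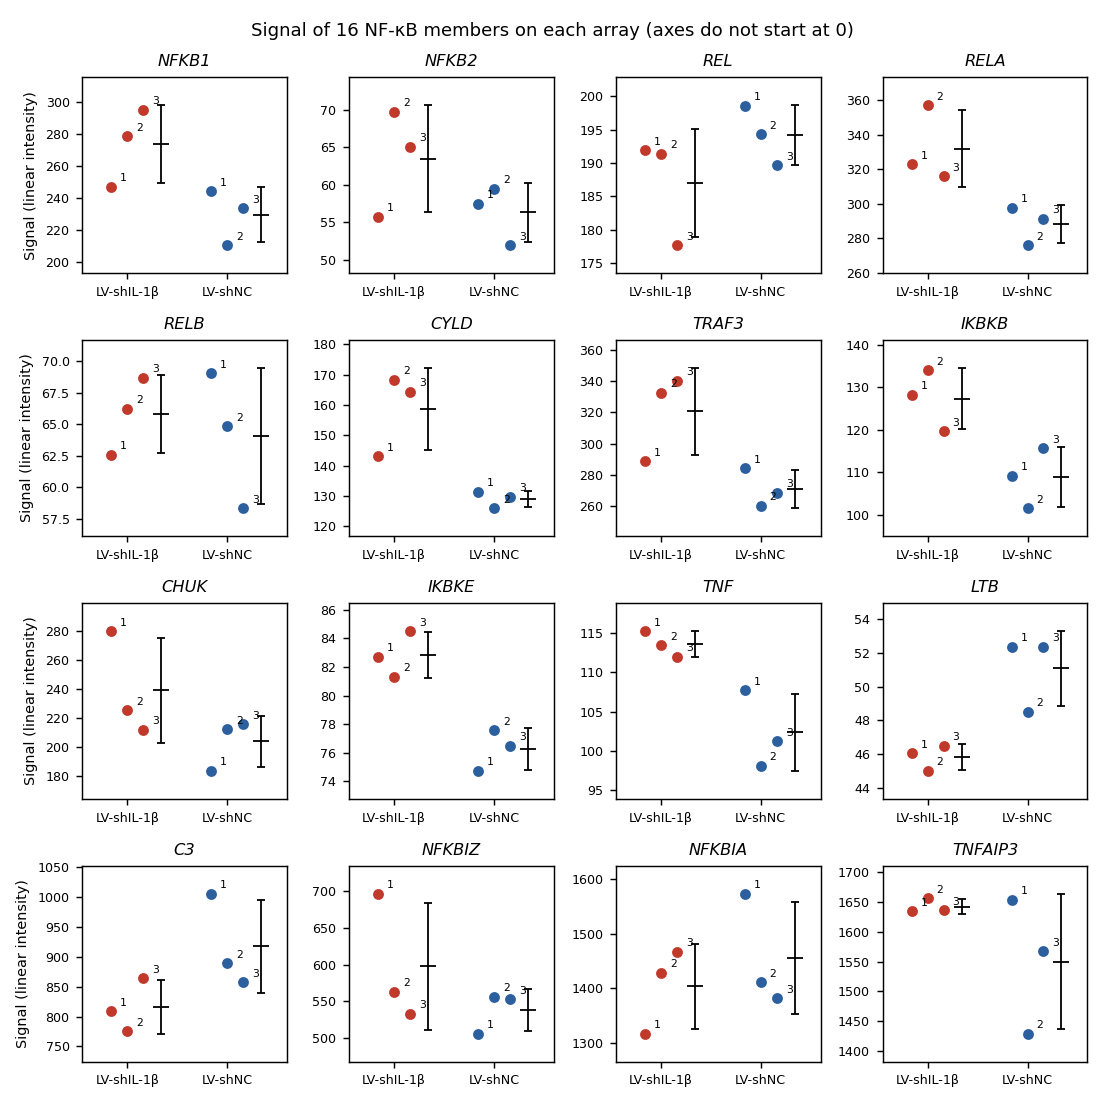
Signal (linear intensity) on each array for 16 members, LV-shIL-1β in red on the left and LV-shNC in blue on the right, numbered by array, with bars for mean ± SD (n = 3) and axes that do not start at 0. LV-shIL-1β array 1 lies nearest the LV-shNC arrays for NFKB1, CYLD and TRAF3, and apart from the others for CHUK and NFKBIZ.

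Among the arrays, LV-shIL-1β array 1 was the farthest of its group from the group mean for 15 of the 28 members, beside 8 and 5 for arrays 2 and 3. In LV-shNC the counts were 12, 7 and 9. Without LV-shIL-1β array 1, NFKB1 (log2 fold change 0.32, limma adjusted p = 0.0357) and TRAF3 (0.31, 0.0182) joined CYLD among the calls. Over all kept probe sets the SD of the deviations of LV-shIL-1β array 1, 0.108 on the log2 scale, was close to the 0.107 of LV-shNC array 1. Over the members alone the SD was 0.106 for LV-shIL-1β array 1, and ran from 0.060 to 0.086 on the other arrays.

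Of the 18 members with a second kept probe set, 12 had the same sign on all of them. The range of log2 fold change between probe sets of a gene had a median of 0.09, and it was largest for CYLD, at 0.39.

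The promoters were searched for the letters that NF-κB dimers are known to recognise. Windows of 300 bases, 250 before to 50 after each RefSeq start site (GRCh38.p14), were scanned on both strands for the 10-base κB consensus. It was present in 22 of 47 windows of the 29 members with a window, or 46.8%, beside 11.3% of the 35116 windows of all genes. Median GC content was 69.3% in the members' windows and 58.7% in all windows, and many members were listed as NF-κB targets to begin with, so this describes the list. Among tested members, the 13 with a match had a median log2 fold change of 0.08 and the 9 without one of 0.09. A match is a run of letters and is not known here to be bound. The windows below are shown for the feedback genes NFKBIA and TNFAIP3 and for CYLD, NFKB1 and TRAF3, with each match in capitals.
NFKBIA, chr14:35404700-35404999, minus strand: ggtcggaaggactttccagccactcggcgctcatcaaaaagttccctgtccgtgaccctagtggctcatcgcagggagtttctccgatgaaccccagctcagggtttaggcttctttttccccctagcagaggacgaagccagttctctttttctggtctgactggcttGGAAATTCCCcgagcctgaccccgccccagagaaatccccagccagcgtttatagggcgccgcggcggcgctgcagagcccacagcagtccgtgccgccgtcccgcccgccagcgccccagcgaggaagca
TNFAIP3, chr6:137867009-137867308, plus strand: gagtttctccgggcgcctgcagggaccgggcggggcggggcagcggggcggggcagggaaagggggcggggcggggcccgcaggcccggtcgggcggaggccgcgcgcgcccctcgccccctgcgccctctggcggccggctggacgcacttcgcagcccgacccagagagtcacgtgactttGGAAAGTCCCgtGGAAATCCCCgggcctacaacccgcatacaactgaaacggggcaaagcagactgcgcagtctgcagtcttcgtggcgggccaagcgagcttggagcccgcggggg
CYLD, chr16:50741836-50742135, plus strand: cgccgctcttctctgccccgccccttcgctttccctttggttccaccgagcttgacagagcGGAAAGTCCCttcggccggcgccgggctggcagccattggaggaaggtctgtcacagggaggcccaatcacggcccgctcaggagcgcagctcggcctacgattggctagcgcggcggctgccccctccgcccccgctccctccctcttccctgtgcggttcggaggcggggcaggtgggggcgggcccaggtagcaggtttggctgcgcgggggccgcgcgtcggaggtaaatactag
NFKB1, chr4:102501109-102501408, plus strand: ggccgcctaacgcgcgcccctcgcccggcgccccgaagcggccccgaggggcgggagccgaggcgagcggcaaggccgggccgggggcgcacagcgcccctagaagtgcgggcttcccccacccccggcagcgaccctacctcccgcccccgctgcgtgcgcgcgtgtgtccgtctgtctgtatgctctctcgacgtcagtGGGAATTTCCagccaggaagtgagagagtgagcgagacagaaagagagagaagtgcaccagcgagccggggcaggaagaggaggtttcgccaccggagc
TRAF3, chr14:102777199-102777498, plus strand: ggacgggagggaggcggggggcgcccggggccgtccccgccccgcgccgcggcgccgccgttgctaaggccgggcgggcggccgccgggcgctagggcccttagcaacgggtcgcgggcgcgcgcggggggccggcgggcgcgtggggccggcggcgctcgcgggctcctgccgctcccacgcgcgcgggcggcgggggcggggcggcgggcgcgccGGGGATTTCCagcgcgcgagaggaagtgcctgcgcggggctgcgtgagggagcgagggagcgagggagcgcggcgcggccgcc

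In these windows the match began 81 bases before the start site in NFKBIA, 67 and 55 in TNFAIP3, 189 in CYLD, 49 in NFKB1 and 33 in TRAF3. CYLD has 3 windows and NFKB1 has 2. Another CYLD window holds 1 match at the start site itself, and the remaining windows of CYLD and NFKB1 hold none. The feedback genes NFKBIA and TNFAIP3 had log2 fold changes of -0.05 and 0.09.

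Larger changes were measured among related genes outside the list. Of 44 other genes of the NF-κB pathway (receptor-proximal adaptors, kinases and modifiers), 37 were tested, and 3 rose (8.11%, beside 4.03% of all genes tested) and 1 fell (2.7%, beside 4.5%) at a limma adjusted p under 0.05, with a median of -0.02. The 10.8% called in either direction stand near the 8.52% of all genes. CARD10, a scaffold that links surface receptors to BCL10 and MALT1, had 400.2, 434 and 412 in LV-shIL-1β cells, against 316, 297 and 325 in LV-shNC cells (0.41 ± 0.06, limma adjusted p = 0.00295). Its second kept probe set stood at 0.00. TBK1, an IKK-related kinase, had 286, 319 and 332 in LV-shIL-1β cells, against 258, 271 and 260 in LV-shNC cells (0.25 ± 0.06, limma adjusted p = 0.0499), and its call held without LV-shIL-1β array 1 and was lost without any other single array, with an adjusted p of up to 0.182. PDLIM2, which promotes the breakdown of nuclear p65, had 81.8, 89.6 and 77.9 in LV-shIL-1β cells, against 145, 134 and 130 in LV-shNC cells (-0.72 ± 0.07, limma adjusted p = 0.000763). IRAK2, a kinase of interleukin-1 receptor signalling, rose by 0.53 on the log2 scale. The calls on CARD10, PDLIM2 and IRAK2 held in all 6 fits with an array left out.

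Of 40 further NF-κB target genes, 33 were tested, and 7 rose (21.2%, beside 4.03% of all genes tested) and 1 fell (3.03%, beside 4.5%), with a median of 0.01. The list was chosen with earlier results of these data known, so the share is a description. TNFSF15, a TNF-family cytokine, had 108, 108 and 110 in LV-shIL-1β cells, against 74.9, 68.5 and 73.2 in LV-shNC cells (0.59 ± 0.06, limma adjusted p = 0.000998). LCN2, a lipocalin that binds bacterial iron carriers, had 980.5, 949 and 981 in LV-shIL-1β cells, against 821, 817 and 799 in LV-shNC cells (0.26 ± 0.04, limma adjusted p = 0.00498). IL6, CCL20 and CXCL2, secreted cytokine and chemokines, rose by 1.05, 0.78 and 0.61, and these 5 calls held in all 6 fits with an array left out. With the replicate number as a block, the call on LCN2 was lost (adjusted p = 0.0569) and the other 4 held. IL1A (0.18 ± 0.04, limma adjusted p = 0.0396), VEGFC, a lymphatic growth factor (-0.26 ± 0.06, 0.0341), and PTGS2, the inducible cyclooxygenase (0.34 ± 0.07, 0.0224), were called on all 6 arrays. With an array left out, IL1A and VEGFC passed in 0 of 6 fits and PTGS2 in 1 of 6, with adjusted p-values of up to 0.123, 0.0990 and 0.0870.

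On probe sets other than the brightest, CD40 and CCL5 of the same list were called. CD40, a TNF-family receptor that signals to NF-κB, fell on its second and its dimmest kept probe set. The second had 32.7, 27.3 and 33.9 in LV-shIL-1β cells, against 55.0, 48.5 and 56.0 in LV-shNC cells (-0.77 ± 0.10, limma adjusted p = 0.00250). The dimmest stood at -0.50 ± 0.08 (limma adjusted p = 0.00789). On its brightest probe set CD40 did not pass, at 143, 113 and 135 in LV-shIL-1β cells and 154, 154 and 152 in LV-shNC cells (-0.25 ± 0.08, limma adjusted p = 0.119), and the groups did not overlap on any of the 3. CCL5, a chemokine, rose on a second probe set (0.46 ± 0.07, limma adjusted p = 0.00571) and did not pass on its brightest (0.20 ± 0.08, limma adjusted p = 0.177).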

How the data were processed

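Signals of 54675 probe sets on Affymetrix Human Genome U133 Plus 2.0 arrays were deposited by the authors as 1 linear intensity per probe set and array. Per the submitters' processing notes the tool was MAS5. Its version and its settings were not given in any source used here. The decimals of 4.48% of values fell on a ladder of 6 steps, each 1 sixth apart, where chance gives 0.1%. On the members' kept probe sets the share was 8.18%. Averaging across 6 arrays can leave such steps, in which case the array-to-array spread could be too small.

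Deposited intensities were log2-transformed with no further scaling. The 62 control probe sets were left out, and probe sets with at least 3 of 6 arrays above the median of all values (18.6) were kept (27566). LV-shIL-1β was compared with LV-shNC (groups from the labels, 3 arrays each) by limma (version 3.58.1, R 4.3.3; two-sided moderated test, lmFit then eBayes with trend), with Benjamini-Hochberg adjustment over all kept probe sets and a threshold of 0.05. The model was also run on data simulated from its own fit, with independent arrays and planted changes larger than those of the members. That run does not speak to changes as small as theirs, or to arrays that are not independent. A gene's value was its brightest probe set with a single symbol (41097 probe sets; 41043 had their identifier in the RefSeq table of GRCh38.p14). Promoter sequences came from RefSeq.

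Members and lists were chosen with earlier results of these data known. Per-array values were given for the 5 subunits, the members called on any probe set and the 8 others with the largest changes; further genes were shown after their values were seen (NFKBIA, TNFAIP3, TNIP1, ICAM1 and SOD2). Alternatives covered normalization, centring, filter, pseudocount of 16, variance trend, replicate block, single arrays left out, mean of probe sets, the methods' t-test and a fold over 1.5. The methods' t-test is Student's t-test, which the study names for its data in general. It was run here on log2 signal with the Benjamini-Hochberg adjustment added. The fold over 1.5 was taken with an unadjusted limma p under 0.05.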

Additional observations from a re-analysis of the deposited data

How the results depend on the processing

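Each of the 28 member values was recomputed under 14 alternatives. Of these values, 361 kept their sign and their side of the threshold, 8 lost a call, 3 gained one and 20 turned sign. The median log2 fold change over all genes, 0.0036 in the report, ran from -0.015 with no filter to 0.019 with median centring. All 8 lost calls were on CYLD: its log2 fold change of 0.29 had an adjusted p of 0.0584 with no filter, 0.0665 with eBayes without trend and 0.140 with the replicate block, and with an array left out the change ran from 0.25 to 0.37 with adjusted p from 0.0120 to 0.164. The gained calls were NFKB1 (0.32 without LV-shIL-1β array 1, and 0.25 at adjusted p = 0.0491 with the mean of kept probe sets, where fewer values were adjusted) and TRAF3 (0.31 without LV-shIL-1β array 1). The log2 fold changes that turned sign were those of 7 genes near 0. With an array left out, NFKBIA ran from -0.087 to 0.0065, NFKBIE from -0.020 to 0.058, RELB from -0.024 to 0.097, ICAM1 from -0.032 to 0.036, SOD2 from -0.16 to 0.069, MAP3K7 from -0.032 to 0.018 and TAB2 from -0.046 to 0.076. Quantile normalization gave -0.011 for NFKBIE, -0.026 for ICAM1 and -0.0058 for TAB2, median centring gave 0.0083 for MAP3K7, and the mean of kept probe sets gave -0.028 for TAB2. The causes were not tested.

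Members called higher, 1 in the report, numbered 0 with no filter, without trend, with the replicate block, by the methods' t-test, at a fold over 1.5 and by the methods' t-test at that fold, 2 with the mean of kept probe sets (NFKB1 and CYLD), and 0 to 3 with an array left out. Members called lower, 0 in the report and 0 with an array left out, numbered 1 by the methods' t-test (TNIP1). The members' median log2 fold change, 0.06, was 0.036 by quantile normalization, 0.074 by median centring, 0.044 with the pseudocount and 0.035 to 0.066 with an array left out. Other pathway genes called higher, 3, numbered 0 by the methods' t-test and 0 at the fold of 1.5 with either test, and called lower, 1, numbered 2 by quantile normalization and with the mean of kept probe sets and 0 by the methods' t-test. Other targets called higher, 7, numbered 4 with the replicate block, 3 by the methods' t-test and 4 at the fold with either test. Other targets called lower, 1, numbered 2 by quantile normalization, 4 with the mean of kept probe sets, and 0 without trend, with the replicate block, by the methods' t-test, at the fold with either test and with any array left out. Over all genes, 496 called higher numbered 306 without trend, 141 with the replicate block, 812 with the mean of kept probe sets, 65 by the methods' t-test, 56 at the fold, 54 at the fold by the methods' t-test and 150 to 538 with an array left out. The 554 called lower numbered 199 with the block, 112 by the methods' t-test, 45 at the fold with either test and 269 to 460 with an array left out. The methods' t-test at the fold of 1.5 and an unadjusted p under 0.05 was added after seeing the data.

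The replicate numbers were not taken as pairs, because the labels do not say that they mark a shared batch. Deviations from the group mean correlated negatively between arrays of the same number. Over all kept probe sets the correlations were -0.39, -0.11 and -0.21 for numbers 1, 2 and 3, and over the members -0.67, -0.15 and -0.53. With the replicate block 0 of the 5 CYLD probe sets were called.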
